A study of Mus musculus with 2 samples.

Results

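The Mir379 to Mir410 cluster is a run of microRNA genes on the plus strand of mouse chromosome 12, inside the imprinted Dlk1-Dio3 region. The members are 34 of the 2202 microRNA genes in the files, taken from a list set by name and position, without Mir134, Mir329, Mir381 and Mir485, which lie among them. The list was matched to GENCODE M21 gene identifiers. The tissue was labelled as a layer of hippocampus and came from male B6CASTF1/J mice aged 36 days. These mice are first-generation offspring of C57BL/6J and CAST/EiJ parents, so their genome holds alleles of both strains. Which allele the reads came from was not tested. Total RNA was made into small RNA libraries and sequenced (microRNA-seq). There is 1 group of 2 libraries, labelled biological replicates 1 and 2, with no treatment and no second condition. The replicates have separate tissue sample labels but the same donor label, and nothing says whether they came from separate animals.

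MicroRNAs are cut from hairpin precursors, and bases 2 to 8 of the mature strand, the seed, pair with target messenger RNAs and guide their repression. The genes of this cluster are expressed from the maternal chromosome, and their hairpins are processed from long shared transcripts. In neurons their transcription is known to follow activity through the factor Mef2. Deletion of the cluster in mice has been linked to anxiety-related behaviour and to the metabolism of newborns. Single members have been studied in brain tissue as well: miR-369-3p, miR-496 and miR-543 restrain N-cadherin in neurogenesis, miR-495 targets Bdnf, and miR-376 precursors are A-to-I edited by ADAR enzymes.

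The first sequences are the mature microRNAs of the 10 highest members, because most of the cluster's counts came from those hairpins. They are written 5′ to 3′ from RefSeq on GRCm38.p6, with the seed in capitals. For Mir487b, Mir376c and Mir539 only a 5p arm was taken from RefSeq, so no 3p arm of theirs entered the sequence counts below. The counts are per gene, so the 5p and 3p arms of a hairpin cannot be separated.
mmu-miR-487b-5p: uGGUUAUCccuguccucuucg
mmu-miR-411-5p: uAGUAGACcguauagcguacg
mmu-miR-411-3p: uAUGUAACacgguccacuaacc
mmu-miR-382-5p: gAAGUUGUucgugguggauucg
mmu-miR-382-3p: uCAUUCACggacaacacuuuuu
mmu-miR-379-5p: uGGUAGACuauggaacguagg
mmu-miR-379-3p: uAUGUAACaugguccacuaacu
mmu-miR-541-5p: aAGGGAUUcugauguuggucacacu
mmu-miR-541-3p: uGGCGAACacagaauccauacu
mmu-miR-369-5p: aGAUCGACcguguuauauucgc
mmu-miR-369-3p: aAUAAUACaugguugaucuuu
mmu-miR-409-5p: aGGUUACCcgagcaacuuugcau
mmu-miR-409-3p: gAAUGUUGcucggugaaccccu
mmu-miR-668-5p: gUAAGUGUgccucgggugagcaug
mmu-miR-668-3p: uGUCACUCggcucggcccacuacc
mmu-miR-154-5p: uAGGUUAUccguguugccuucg
mmu-miR-154-3p: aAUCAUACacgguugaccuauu
mmu-miR-376a-5p: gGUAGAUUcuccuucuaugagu
mmu-miR-376a-3p: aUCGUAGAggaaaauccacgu

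The next sequences are arms of other members that share a seed with a member, shown because the same 7 bases can sit on hairpins of very unequal level. The last pair, from Mir543 and Mir495, does not share a seed and was added after its values were seen.
mmu-miR-1193-5p: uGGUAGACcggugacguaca
mmu-miR-1197-5p: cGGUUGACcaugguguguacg
mmu-miR-758-5p: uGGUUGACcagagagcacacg
mmu-miR-453: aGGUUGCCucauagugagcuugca
mmu-miR-496a-5p: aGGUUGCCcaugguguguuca
mmu-miR-494-5p: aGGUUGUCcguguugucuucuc
mmu-miR-410-5p: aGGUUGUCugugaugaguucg
mmu-miR-376c-5p: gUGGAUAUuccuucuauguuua
mmu-miR-376b-5p: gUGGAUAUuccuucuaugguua
mmu-miR-543-3p: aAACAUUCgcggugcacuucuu
mmu-miR-495-3p: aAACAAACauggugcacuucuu

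The own-strand counts over all microRNA genes summed to 4404040 in replicate 1 and 5279877 in replicate 2. Levels are given as counts scaled to a total of 1000000 (CPM), as mean ± SD of the 2 libraries. They are not divided by length, since reads come from mature strands of 19 to 25 bases. Of 13 marker genes of neural tissue, 9 had 10 or more counts in both libraries. The copies of Mir124a, a defining neuronal microRNA, were at or near 0, and Mir9-2 had 10 and 9 counts. Reads that match several places enter no gene's count. The summed neural level was 91639 CPM in replicate 1 and 97253 CPM in replicate 2, of which Mir127, a gene of the same imprinted region, gave 55133 and 57832 CPM. The others went both ways, such as Mir132 with 23835 and 17251 CPM and Mir128-1 with 5440 and 11949 CPM. The muscle list was at 98.3 and 108 CPM, nearly all of it from Mir206 (98.1 and 107 CPM). Mir1a-1 and Mir133a-1 were at 0, and Mir1a-2 had 1 and 2 counts. The liver marker Mir122 was at 30.2 and 27.7 CPM.

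The 34 members took 281007 counts in replicate 1 and 333569 in replicate 2. That was 6.38% of the microRNA counts (95% Wilson interval 6.36 to 6.40) and 6.32% (6.30 to 6.34). The mean was 6.35% ± 0.0445 (SD, n = 2), so the share of the cluster as a whole was nearly equal in the 2 libraries. Amplified reads were not collapsed by molecular identifiers, so every interval here describes counting error alone. In all, 31 of the 34 members (91.2%) had 10 or more counts in both libraries, against 411 of all 2202 genes (18.7%). Of the other 25 microRNA genes on the plus strand from Meg3 to Mirg, 20 (80%) did, so high detection was not particular to the cluster. With either-strand counts, a deposited column that sets aside reads where genes overlap on opposite strands, 26 members reached that minimum.

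Levels within the cluster covered a wide range, and the highest detected member had 5615 times the counts of the lowest in replicate 1 and 1711 times in replicate 2. Mean levels reached 1000 CPM in 13 members, lay between 100 and 1000 CPM in 10 and were under 100 CPM in 8 detected members. The same 13 were among the 100 highest genes by mean CPM. Within single libraries, 11 members were among the 100 highest in replicate 1 and 13 in replicate 2. The median of the detected members was 264 CPM, beside 94.2 CPM for all detected genes and 837 CPM for the other detected genes of the region.

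**Figure D1:**
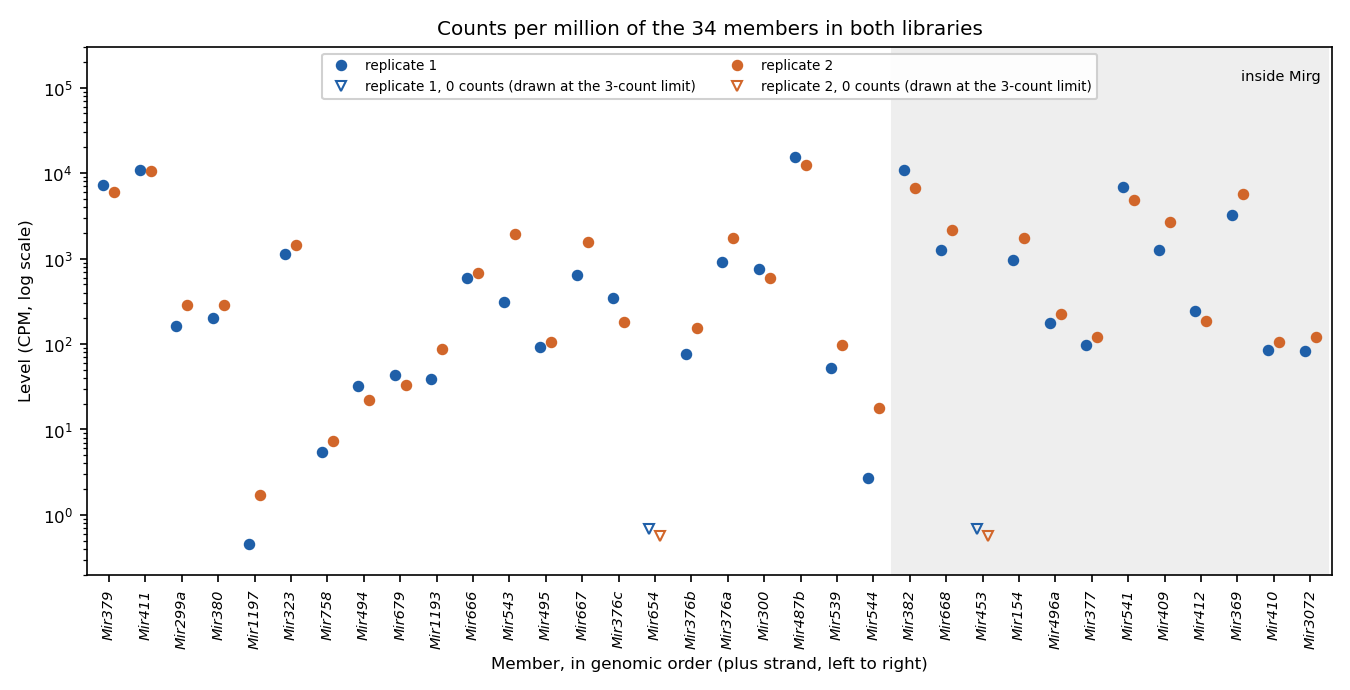
Levels of the 34 members in CPM on a log axis, in genomic order, with 1 point for each library. Grey marks the 12 members inside the annotated Mirg gene, and open triangles stand for 0 counts at the level of 3 counts. High members occur at both ends and in the middle of the cluster, and Mir487b is the highest in both libraries.

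Mir487b (ENSMUSG00000076219.1, chromosome 12, 109727333 to 109727414, mm10) was the highest member, with 67377 counts in replicate 1 and 66722 in replicate 2. It stood at 13968 ± 1882 CPM and held 24.0% of the cluster's counts in replicate 1, with a Wilson interval of 23.8 to 24.1. In replicate 2 it held 20.0%, with an interval of 19.9 to 20.1. Its hairpin shares 20 bases with that of Mir376b, which makes its count uncertain. Mir411 (109710175 to 109710256) followed with 47480 and 55730 counts, or 10668 ± 160 CPM, the smallest relative spread of the 5 highest members. Its hairpin shares 21 bases with that of Mir758. Mir382 (109733771 to 109733846) had 47407 and 35335 counts, or 8728 ± 2879 CPM.

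Mir379 (109709060 to 109709125), the first gene of the cluster, had 32322 and 31865 counts, or 6687 ± 922 CPM. Mir541 (109742409 to 109742498) had 30117 and 25918 counts, or 5874 ± 1364 CPM. These 5 members sat in the upper part of both libraries, and the order of the first 4 was equal in the 2. The mean ± SD range of Mir487b lay above those of the other members, while each neighbouring pair from Mir411 to Mir369 in this order had overlapping ranges. Mir541 and Mir369 changed places, Mir541 being the fifth in replicate 1 and Mir369 in replicate 2.

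Mir369 (109743418 to 109743496), whose 3p arm is known to bind an AU-rich element of the Tnf messenger RNA, had 14083 and 30069 counts, or 4446 ± 1766 CPM. Mir409 (109743158 to 109743236) had 5580 and 14180 counts, or 1976 ± 1003 CPM. Mir668 (109734732 to 109734797) had 5631 and 11482 counts, or 1727 ± 634 CPM. All 3 lie inside the noncoding host gene Mirg and were higher in replicate 2. Mir154 (109738433 to 109738498) had 4233 and 9235 counts, or 1355 ± 557 CPM. Mir376a (109723781 to 109723848) had 4016 and 9317 counts, or 1338 ± 603 CPM. The mean ± SD ranges of Mir409, Mir668, Mir154 and Mir376a overlapped. Within each library, Mir409 and Mir668 were both above Mir154 and Mir376a. The order of Mir409 and Mir668 turned between the libraries, and so did that of Mir154 and Mir376a.

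At the low end, Mir654 (109723218 to 109723301) and Mir453 (109735619 to 109735700) had 0 counts in both libraries. The upper limit left by 0 counts is 3 counts, which is 0.681 CPM for replicate 1 and 0.568 CPM for replicate 2 (counting error only). Mir1197 (109712317 to 109712436) had 2 and 9 counts. Mir758 and Mir544 were the next lowest, Mir758 with 24 and 39 counts and Mir544 with 12 and 94. Mir299a, Mir380, Mir323, Mir679, Mir666, Mir300, Mir539, Mir377 and Mir3072 had mean levels between 38.1 CPM (Mir679) and 1293 CPM (Mir323).

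A few members held most of the counts. The 5 highest took 80.0% of the cluster in replicate 1 and 64.6% in replicate 2, with a mean of 72.3% ± 10.8 (SD, n = 2). The 10 highest took 91.9% and 86.9%. In summed CPM the 5 highest went from 51022 in replicate 1 to 40829 in replicate 2, while the other 29 went from 12785 to 22349. The 2 shifts nearly offset each other: members with more CPM in replicate 2 gained 9974 CPM in sum, and those with less changed by -10603 CPM.

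**Figure D2:**
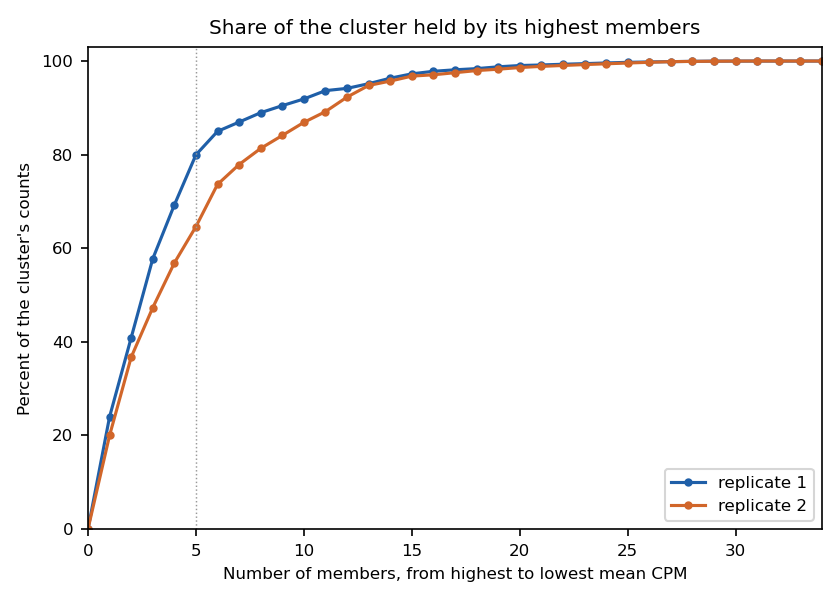
Cumulative percent of the cluster's counts against the number of members, added from the highest to the lowest mean CPM, with 1 line for each library and a dotted line at 5 members. The line of replicate 1 reaches 80.0% at 5 members and that of replicate 2 64.6%, and the lines meet only further down the list.

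Replicate 2 was compared with replicate 1 gene by gene, with an exact binomial test on the counts of the 504 genes with 10 or more counts in total. The test covers counting error only and compares these 2 libraries, not conditions. Of the 32 members tested, 29 passed at an adjusted p under 0.05, beside 55.8% of all tested genes. In replicate 2, 19 members were higher (32.5% of all genes) and 10 lower (23.2% of all genes). The 3 members that did not pass were Mir1197, Mir758 and Mir495 (adjusted p = 0.194, 0.422 and 0.108 in the exact test). High counts make small differences pass: among genes with 100 or more counts, 29 of 30 members and 81.2% of all genes passed. The median log2 ratio of replicate 2 over replicate 1, after adding 1 CPM, was 0.36 over the members and 0.05 over all tested genes.

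These calls depend on how much spread between libraries is allowed. With a coefficient of variation of 0.1 added to the counting error, 14 members passed, 12 higher and 2 lower, beside 29.6%, 19.0% and 10.5% of all genes. With the coefficient of 0.426 that edgeR estimated from the 2 libraries, 0 members and 0.595% of all genes passed. At that setting 2 members had an unadjusted p under 0.05. The differences below are therefore differences beyond counting error between 2 libraries, and after adjustment 0 of them exceeds the estimated spread. That spread was estimated from the same 2 libraries, so it already holds the differences between them. Few genes could pass it, and it cannot tell which members differ. By size, 17 of the 32 members (53.1%) were within 1.5-fold, against 62.9% of all tested genes. Past the exact test and at least 2-fold higher in replicate 2 were 5 of the 32 members and 58 of all 504 tested genes. Past it and at least 2-fold lower were 0 members and 26 genes. Members close to that limit crossed it with the scaling, in both ways. Mir376c stood at -1.02 on the log2 scale with DESeq2 size factors and -1.10 with a minimum of 100 counts, and Mir376b at 1.01 with total counts. Mir409, one of the 5 at least 2-fold higher, fell to 0.93 with the minimum of 100 counts.

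Mir543 (109717258 to 109717333), a regulator of N-cadherin in neural progenitors, differed most. It had 1362 counts in replicate 1 and 10364 in replicate 2, or 309 and 1963 CPM, a log2 ratio of 2.64. Mir544 (109729325 to 109729402) had 12 and 94 counts, a log2 ratio of 2.32 (exact binomial test, adjusted p = 2.76e-13). Both were higher in replicate 2, one from a middle level and the other from near the detection minimum. Mir667 (109720006 to 109720097) had 2803 and 8276 counts, a log2 ratio of 1.28. Mir1193 (109715671 to 109715791) had 171 and 463 counts, a log2 ratio of 1.14 (exact binomial test, adjusted p = 1.81e-20). Mir409 completed the 5 largest with a log2 ratio of 1.07. The adjusted p of the exact test for Mir543, Mir667 and Mir409 was too small to be written, and all 5 also passed with a coefficient of variation of 0.1.

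In the other direction, Mir376c (109722718 to 109722803) had 1533 and 948 counts, a log2 ratio of -0.97. Mir382 had a log2 ratio of -0.70. These were the 2 members that were also lower with a coefficient of variation of 0.1, with adjusted p of 4.10e-05 and 0.00299 in that beta-binomial form of the exact test. Mir494 (109715318 to 109715402) had 142 and 117 counts, a log2 ratio of -0.54 (exact binomial test, adjusted p = 0.00456). Mir541 had a log2 ratio of -0.50, and Mir412 (109743289 to 109743368), with 1080 and 972 counts, one of -0.43. Each of these 3 was lower beyond counting error, and none of the 3 passed with the added spread.

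All 5 of the highest members were lower in replicate 2 and each passed the test, with Mir411 closest to no difference at -0.05. With a coefficient of variation of 0.1 only Mir382 of these 5 passed. With either-strand counts Mir411 stood at 0.01 and did not pass. Of the 27 tested members below the 5 highest, 19 were higher and 5 lower, beside 32.5% and 23.2% of all tested genes. The other 3 did not pass, and the median log2 ratio of the 27 was 0.53. Among all 39 genes of the libraries at or above the level of Mir541, 16 were higher and 21 lower. Over the 32 tested members the rank correlation of log2 ratio and mean level was -0.18, and over all 504 genes 0.03. Both are descriptions across genes of the same 2 libraries.

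**Figure D3:**
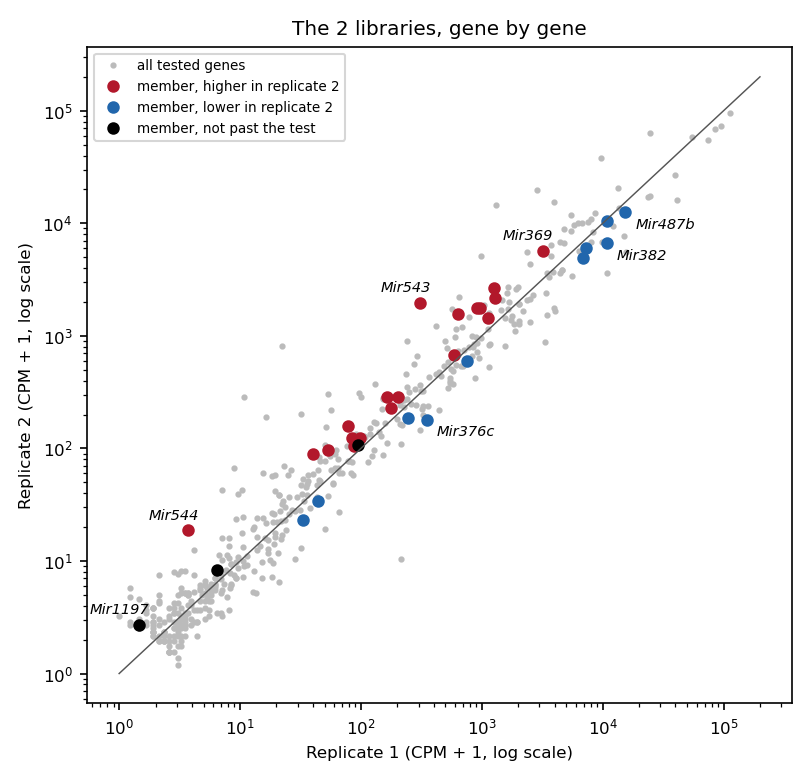
CPM + 1 of each tested gene in replicate 1 (x) and replicate 2 (y), both on log axes, with the 32 tested members coloured by the exact binomial test and the line of equal levels. The 5 highest members lie below the line, and Mir543 and Mir544 lie farthest above it among the members.

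The order of the members was nevertheless much the same in the 2 libraries. The rank correlation over the 34 members was 0.98 (Pearson 0.98 on the log scale), beside 0.97 over all tested genes. An equal rank in both was held by 10 members, among them Mir654 and Mir453, which tied at 0 counts. These are correlations across genes, which are not independent replicates. Mir543 moved from the 16th to the 9th place and Mir376c from the 15th to the 20th.

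Marker genes of other cell types also differed between the libraries. The vessel wall list summed to 16250 CPM in replicate 1 and 43835 CPM in replicate 2, mostly from the endothelial Mir126a (9729 and 37937 CPM). Its other members moved less, Mir143 from 6311 to 5658 CPM and Mir145a from 209 to 241 CPM. The red blood cell list stood at 43.8 and 95.6 CPM, the choroid plexus list at 1297 and 1664 CPM (Mir34c with 550 and 380, Mir204 with 683 and 1206) and the oligodendrocyte list at 5809 and 5649 CPM. All members of these 4 lists had 10 or more counts in both libraries. Their part in the differences of the cluster was not tested. In bulk tissue fewer cells of a type and less RNA per cell cannot be told apart, nor can the animal and the library preparation here.

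The members span 38901 bases, from 109709060 to 109747960. The annotated Mirg gene, a long noncoding host transcript, runs from 109729764 to 109749460 in GENCODE M21. It holds 12 members, from Mir382 onward, of which 7 overlap an exon and 5 lie in an intron. The other 22 lie upstream of it, with no other annotated gene on their strand, so the annotated transcript covers only part of the list. Mir3072 (109747878 to 109747960) is the last member by position and lies 4082 bases past Mir410. The 12 members inside Mirg took 39.2% of the cluster's counts in replicate 1 and 39.0% in replicate 2. Inside Mirg 8 members were higher and 3 lower of 11 tested, with a median log2 ratio of 0.35. Upstream 11 were higher, 7 lower and 3 did not pass of 21, with a median of 0.36. Over all 504 tested genes, 32.5% were higher and 23.2% lower. Position along the cluster showed little relation to level (rank correlation 0.08, n = 34) or to the library ratio (0.03, n = 32).

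**Figure D4:**
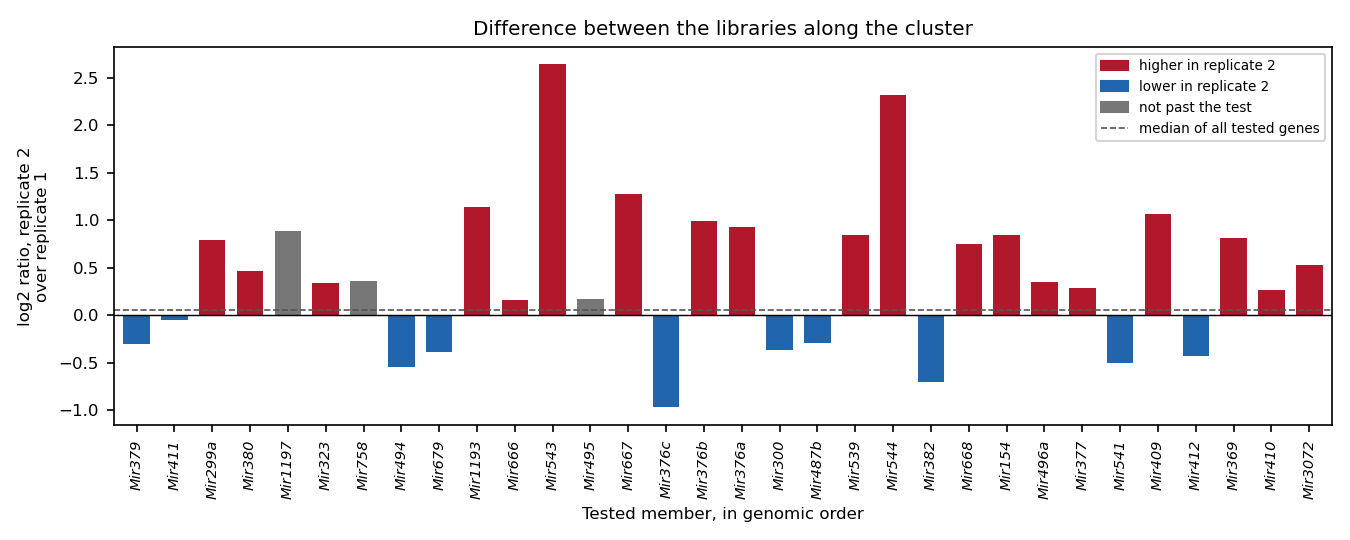
Log2 ratio of replicate 2 over replicate 1 (1 CPM added) for the 32 tested members in genomic order. Red bars are higher and blue bars lower in replicate 2 by the exact binomial test, grey bars did not pass, and the dashed line is the median of all tested genes at 0.05. Higher and lower members both occur along the whole cluster, from 2.64 for Mir543 to -0.97 for Mir376c.

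Neighbours did not share a direction throughout. Of 23 pairs of adjacent members that both passed the test, 12 differed in the same direction and 11 in opposite ones. Of 13 such pairs within 1000 bases of each other, 5 had the same direction and 8 opposite ones. Mir409, Mir412, Mir369 and Mir410 lie within 638 bases. Mir409, Mir369 and Mir410 were higher in replicate 2, and Mir412, which lies between Mir409 and Mir369, was lower. Mir410 did not pass when the scaling rested on genes with 100 or more counts.

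In that group of 4, Mir369 had 13.0 times the counts of Mir412 in replicate 1 (95% exact binomial interval 12.3 to 13.9) and 30.9 times in replicate 2 (29.0 to 33.0). Mir409 had 5.17 times (4.84 to 5.52) and 14.6 times (13.7 to 15.6) the counts of Mir412. Mir369 had 37.2 times (33.6 to 41.3) and 54.2 times (49.8 to 59.0) those of Mir410 (109743715 to 109743795), which had 379 and 555 counts. Hairpins less than 1000 bases apart thus differed by over 10-fold in counts in both libraries for Mir369 against Mir412 and Mir410. A ratio of counts between genes also holds any difference in how well each mature strand is captured, which was not tested.

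Mir666 (109717085 to 109717183) and Mir543 lie 74 bases apart. Mir666 had 1.92 times the counts of Mir543 in replicate 1 (1.79 to 2.05) and 0.341 times in replicate 2 (0.328 to 0.355), so their order turned. Mir323 (109712508 to 109712593) had 208 times the counts of its neighbour Mir758 in replicate 1 (140 to 325) and 197 times in replicate 2 (144 to 277). Those intervals overlap, and this unequal level was kept in both libraries.

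Members that share a seed stood at unequal levels. The 64 mature sequences of the 34 members hold 58 distinct seeds, and 6 seeds occur on 2 members each, 11 members in all. Of the 64 mature sequences, 9 carry a seed that a gene outside the list also has. None of the 64 mature sequences was found whole in another annotated hairpin (0 of 64).

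The 5p arms of Mir379 and Mir1193 share GGUAGAC. Mir379 had 189 times the counts of Mir1193 in replicate 1 (163 to 221) and 68.8 times in replicate 2 (62.8 to 75.6). The 3p arms of Mir379 and Mir411 share AUGUAAC, and both hairpins were among the highest. Mir379 had 0.681 times the counts of Mir411 in replicate 1 (0.671 to 0.690) and 0.572 times in replicate 2 (0.564 to 0.580).

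The 5p arms of Mir1197 and Mir758 share GGUUGAC, and both genes were near the bottom. Mir758 had 12 times the counts of Mir1197 in replicate 1 (2.98 to 105) and 4.33 times in replicate 2 (2.06 to 10.2), with wide intervals from few counts. Mir453 and the 5p arm of Mir496a (109739119 to 109739197) share GGUUGCC. Mir453 was at 0, and Mir496a had 771 and 1193 counts. The 5p arms of Mir494 and Mir410 share GGUUGUC. Mir410 had 2.67 times the counts of Mir494 in replicate 1 (2.20 to 3.26) and 4.74 times in replicate 2 (3.88 to 5.84).

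The miR-376 genes lie side by side, and their seeds are of interest because editing in this family is known to fall in the seed. The 5p arms of Mir376c and Mir376b share UGGAUAU and a stretch of 18 bases, and their hairpins share 31. Mir376b (109723458 to 109723539) had 338 and 822 counts. Mir376c had 4.54 times the counts of Mir376b in replicate 1 (4.03 to 5.12) and 1.15 times in replicate 2 (1.05 to 1.27). Mir376b was higher in replicate 2, with a log2 ratio of 0.99, while Mir376c was lower. Both counts are uncertain because of the shared stretch. Mir376a, which shares no 20-base stretch with another gene, had 11.9 times (10.6 to 13.3) and 11.3 times (10.6 to 12.2) the counts of Mir376b. Edited reads were not analysed here.

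The 3p arms of Mir543 and Mir495 share a stretch of 12 bases past the seed, and their seeds differ. Mir495 (109718754 to 109718816), a known regulator of Bdnf, had 410 and 561 counts and did not pass the test (log2 ratio 0.17, exact binomial test, adjusted p = 0.108). Mir543 had 3.32 times the counts of Mir495 in replicate 1 (2.97 to 3.72) and 18.5 times in replicate 2 (17.0 to 20.1).

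Some letters recur across the mature sequences. GGUUG, searched on the mature strand only, was in 10 of the 64 (15.6%) and in 52 of the 1679 mature microRNAs of the RefSeq table (3.10%). AUGGU was in 9 (14.1%) and in 56 of the 1679 (3.34%). GGUCCAC was in 5 of the 64 (7.81%), the 3p arms of Mir379, Mir411, Mir380, Mir758 and Mir412, and in 5 of all 1679 (0.298%). These letters were chosen after the sequences were seen, and the counts only describe likeness among the members. The 5 genes with GGUCCAC ranged from 6.42 ± 1.37 CPM (Mir758) to 10668 ± 160 CPM (Mir411).

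The hairpins' predicted folding energies ran from -46.9 kcal/mol (Mir666) to -16.6 kcal/mol (Mir376a), with a median of -32.8. Of the genes at 0, Mir654 had -23.8, weaker than every member except Mir376a and Mir495, and Mir453 had -32.5, near the median. Over the 34 members the rank correlation of level was -0.15 with energy per base and -0.05 with GC content. These weak relations are given as descriptions only.

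Counts on the strand opposite to the members were 2 in replicate 1 and 1 in replicate 2, over all 34 together. A microRNA gene on the minus strand lies over 5 members, Mir299a, Mir380, Mir376a, Mir539 and Mir409, and those 5 minus-strand genes had 1 count in sum in each library. The own-strand column was itself recognised from the values, so these counts alone do not show which strand the reads came from. No member reached 10 opposite-strand counts in either library.

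The other 25 microRNA genes on the plus strand between the start of Meg3 and the end of Mirg were set beside the cluster. They took 9.80% of the counts in replicate 1 and 8.32% in replicate 2, a mean of 9.06% ± 1.04 (SD, n = 2). The cluster held 39.4% and 43.2% of the counts of all 59 genes of the region. Of the 20 other genes tested, 4 were higher in replicate 2 and 13 lower, beside 32.5% and 23.2% of all tested genes. The other 3 did not pass, and the median log2 ratio of the 20 was -0.30. The cluster's own median was 0.36, and the difference between these 2 lists was not tested. Mir127, the highest microRNA gene of the region, had 242806 and 305346 counts and a log2 ratio of 0.05.

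The 4 genes left out of the list fell on both sides. Mir134, which restrains dendritic spine size through Limk1, had 2308 and 1806 counts and was lower in replicate 2 (log2 ratio -0.63). Mir381 had 2708 and 6046 counts and was higher (0.88), and Mir485 had 8763 and 14316 counts and was higher (0.43). Mir329 had 1148 and 1292 counts and did not pass (exact binomial test, adjusted p = 0.106). Mir382 had 20.5 times the counts of Mir134, which lies next to it, in replicate 1 (19.7 to 21.4) and 19.6 times in replicate 2 (18.7 to 20.5), and those intervals overlap.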

How the data were processed

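MicroRNA-seq was made from 2 hippocampus libraries of 1 group. The deposited values are raw read counts per microRNA gene, 1 file per library. The deposited notes name mm10 as the build and GENCODE M21 as the annotation. For the aligner and the counter, a name is not given in the sources used here. Own-strand counts, whose column was recognised from the values, were used throughout. Lines that name no gene held 64.7% of reads in replicate 1 and 65.4% in replicate 2, of which multimapping reads were 40.3% and 46.5% of all reads, and stayed out of library sizes and tests. Whether CAST/EiJ alleles changed the mapping was not tested.

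A CPM value is the count over the library's own-strand total of all genes. The libraries were compared by an exact binomial test, two-sided and conditional on each gene's total (scipy 1.17.1). It used TMM-adjusted sizes (edgeR 4.0.16, R 4.3.3) and the genes whose counts in the 2 libraries summed to 10 or more, with Benjamini-Hochberg adjustment at 0.05 over all of them. Log2 ratios are replicate 2 over replicate 1 with 1 CPM added, which lowers the ratios of low genes. With 1 group, edgeR's quasi-likelihood test has no contrast. A shared stretch is 20 bases in common with another annotated hairpin. Mature sequences come from RefSeq on GRCm38.p6, the mm10 assembly, where all 34 members matched. Folding energies are from RNAfold 2.7.2, and the scripts ran in Python 3.11.15 with pandas 2.3.3, numpy 2.4.6 and, for plots, matplotlib 3.10.9.

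Counts per library are given for the 10 highest members, the 5 largest ratios in each direction, members under the detection minimum (10 counts in each library) and members that share a seed. Members described as neighbours were added after their values were seen. Alternatives were other scalings (DESeq2 1.42.0 size factors, total counts), other count minimums, another pseudocount, added spread between libraries, either-strand counts, genes without a shared stretch, and each library alone. The test was checked on simulated counts. The members and the marker lists were chosen with earlier results of these data known.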

Additional observations from a re-analysis of the deposited data

How the results depend on the processing

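With a coefficient of variation of 0.1 between libraries, 14 members passed, 12 higher and 2 lower in replicate 2. The estimated coefficient of 0.426 was a setting chosen after seeing the data, and it holds the differences between these same 2 libraries. With it 0 members passed, 0 higher and 0 lower, and 2 members and 22 of all genes had an unadjusted p under 0.05. The number passing was 29 of 32 with total counts, with DESeq2 size factors and without a count minimum, beside 55.0%, 54.4% and 35.3% of all genes tested. It was 26 of 30 with a minimum of 100 counts (80.5% of all genes), 24 of 27 with either-strand counts (53.7%) and 25 of 27 without genes that share 20 bases (50.5%). With the minimum of 100 counts the log2 ratio of a gene shifted by a median of -0.13, and Mir377, Mir410 and Mir666 no longer passed. The cluster's share of counts was 6.49% with either-strand counts and 3.85% over members without a shared stretch, which leaves out 5 members, Mir487b and Mir411 among them. From a single library the share was 6.32% to 6.38%, the number of members detected 31 in each, and the share of Mir487b 20.0% to 24.0%. Directions of the 32 tested members were kept with a pseudocount of 0.5 CPM, total counts and DESeq2 size factors. No paired analysis was possible because there is 1 group. Reads that match several places are outside the counts, and the 0 counts of Mir654 and Mir453 leave an upper limit of 0.681 CPM in replicate 1.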
